A study of Mus musculus with 8 samples.

Results

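The genes described here are the mouse zinc finger genes whose symbol is Zfp9 followed by 2 further digits. Membership follows the name, and this set was chosen with earlier results of these data known. There are 59 of them, numbered between 930 and 997, among 27727 genes listed in either of the deposited tables. RNA was measured in 8 libraries of cultured 4T1 cells, a mouse breast cancer line derived from the BALB/c strain. The Hypo group (4 libraries, replicates 2 to 5) received SKL2001 and decitabine overnight, and the Ctrl group (4 libraries, replicates 1 to 4) received SKL2001 alone overnight, so every library carries SKL2001. SKL2001 stabilizes β-catenin and thereby activates canonical Wnt signalling, whereas decitabine is a cytidine analogue that traps DNA methyltransferases on DNA. All libraries come from 1 wild-type line, and DNA methylation was not analysed here, so Hypo is used as the name of the treatment.

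Most genes of this name encode KRAB zinc finger proteins, the largest family of DNA-binding repressors in mammals. Their C2H2 zinc fingers read DNA, each finger contacting a short run of bases, and their KRAB domain recruits the corepressor TRIM28 with the histone methyltransferase SETDB1. They are best known for silencing retroelements through H3K9 methylation and DNA methylation. The genes lie in clusters that grew by duplication, so neighbours are often alike in sequence.

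Of the 59 genes, 58 are annotated as protein coding, and Zfp939 is annotated as a transcribed pseudogene. Translation of the annotated coding sequences found at least 1 complete C2H2 finger in 57 genes, between 2 and 21 with a median of 11. The letters of the KRAB box were found in 56 genes, all but Zfp939, Zfp956 and Zfp972. The genes lie on 11 chromosomes in 26 neighbourhoods, a neighbourhood being a run of these genes less than 1 Mb apart.

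The libraries held between 27486245 and 39388394 recovered reads. Epithelial markers (5 of 5 found, none below 10 in every library) summed to 108519 to 123561 normalized counts in Hypo and 117398 to 134487 in Ctrl. Within that sum Epcam was higher in Hypo (12651 to 13744, against 10495 to 10670) and Krt7 lower (23393 to 27210, against 30597 to 39861). For Cdh1, Krt8 and Krt18 the groups overlapped. Leukocyte markers (3 of 5 found) summed to 30.5 to 45.1 in Hypo and 9.06 to 13.0 in Ctrl. Most of that sum was Ptprc (27.5 to 39.3 in Hypo, 8.15 to 11.3 in Ctrl). Itgam reached at most 4.63, and Adgre1 was at most 1.16 in Hypo and 2.05 in Ctrl. Endothelial markers (4 of 4) summed to 103 to 127 in Hypo and 23.5 to 50.4 in Ctrl. Most of the Hypo sum was Cdh5 (69.8 to 93.4, against 11.3 to 24.3 in Ctrl). Kdr was also higher in Hypo (9.84 to 13.9, against 0.87 to 3.07). The groups overlapped for Pecam1 (16.6 to 22.6, against 5.43 to 23.1) and for Tek, which reached at most 2.75. Fibroblast markers (3 of 4) summed to 2165 to 2460 in Hypo and 1792 to 2180 in Ctrl. Nearly all of the fibroblast sum was Pdgfra (2149 to 2442 in Hypo, 1792 to 2179 in Ctrl). Dcn reached at most 7.87 and Thy1 at most 16.6 in any library, so that sum describes 1 gene. The part of these differences in the results was not tested. Genes of the integrated stress response (8 of 8) summed to 65956 in Ctrl replicate 3, above the 32407 to 42801 of the other Ctrl libraries and the 39338 to 50122 of the Hypo libraries. Atf3 alone among them was not highest in that library (1148, against 1105 to 2058 in Hypo).

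The promoters of the 3 genes that passed the test (Zfp941, Zfp958 and Zfp959), of Zfp936, which had almost no reads in Ctrl, and of Zfp948, the most abundant gene, are shown for their CG dinucleotides, the sites that DNA methyltransferases methylate. Each is the RefSeq sequence of GRCm38.p6 from 250 bases before to 50 bases after the annotated start, 5′ to 3′, with every CG in capitals. They lie at chr7:140822129-140822428 on the minus strand (Zfp941), chr8:4612920-4613219 on the plus strand (Zfp958), chr17:55891843-55892142 on the plus strand (Zfp959), chr7:43177340-43177639 on the plus strand (Zfp936) and chr17:21566728-21567027 on the plus strand (Zfp948). The RefSeq start of Zfp936 is 63361 bases from the gene start in the GENCODE annotation, whereas the other starts are within 30 bases of it.
Zfp941: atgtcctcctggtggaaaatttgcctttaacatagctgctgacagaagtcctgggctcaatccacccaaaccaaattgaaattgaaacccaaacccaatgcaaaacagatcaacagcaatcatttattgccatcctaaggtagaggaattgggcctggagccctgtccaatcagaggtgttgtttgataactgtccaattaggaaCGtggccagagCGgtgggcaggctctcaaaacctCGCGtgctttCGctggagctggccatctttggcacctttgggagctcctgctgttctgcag
Zfp958: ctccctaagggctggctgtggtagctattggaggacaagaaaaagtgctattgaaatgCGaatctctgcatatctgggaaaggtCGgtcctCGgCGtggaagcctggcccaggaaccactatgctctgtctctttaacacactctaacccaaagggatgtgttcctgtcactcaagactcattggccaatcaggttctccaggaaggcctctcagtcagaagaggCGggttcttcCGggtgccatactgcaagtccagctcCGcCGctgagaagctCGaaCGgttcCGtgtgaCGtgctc
Zfp959: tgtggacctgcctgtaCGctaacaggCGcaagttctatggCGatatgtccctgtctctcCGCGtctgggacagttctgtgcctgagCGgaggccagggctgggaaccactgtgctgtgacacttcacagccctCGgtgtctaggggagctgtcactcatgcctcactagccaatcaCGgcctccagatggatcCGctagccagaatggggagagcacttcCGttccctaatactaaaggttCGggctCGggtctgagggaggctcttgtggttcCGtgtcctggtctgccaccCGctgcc
Zfp936: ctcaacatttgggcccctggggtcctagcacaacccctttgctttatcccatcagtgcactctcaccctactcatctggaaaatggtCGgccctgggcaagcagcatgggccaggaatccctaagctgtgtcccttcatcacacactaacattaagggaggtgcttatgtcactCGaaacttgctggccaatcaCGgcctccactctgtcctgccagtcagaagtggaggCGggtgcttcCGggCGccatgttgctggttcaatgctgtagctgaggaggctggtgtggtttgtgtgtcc
Zfp948: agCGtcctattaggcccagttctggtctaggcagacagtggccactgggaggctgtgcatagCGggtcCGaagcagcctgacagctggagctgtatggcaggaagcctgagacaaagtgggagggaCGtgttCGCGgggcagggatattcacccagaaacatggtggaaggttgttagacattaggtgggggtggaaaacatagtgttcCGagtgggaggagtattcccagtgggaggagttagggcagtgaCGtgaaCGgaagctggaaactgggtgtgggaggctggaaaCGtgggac
These sequences hold 5 CG in Zfp941, 12 in Zfp958, 14 in Zfp959, 6 in Zfp936 and 10 in Zfp948. The median over 14799 promoters of the same length was 17. Of the 47 genes of this group with a RefSeq start within 500 bases of the GENCODE start, 35 (74.5%) held at most 10 CG, against 34.5% of all promoters. The count ranged between 3 and 24 with a median of 9 in the 39 of them that had enough reads to be tested, and between 3 and 6 with a median of 5 in the 8 that had not.

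Normalized counts, which are reads divided by a size factor of the library, were available for 53 of the 59 genes. The other 6 (Zfp965, Zfp968, Zfp980, Zfp989, Zfp993 and Zfp997) were present only as transformed values, which read back to at most 2.61 normalized counts in any library. A mean of at least 10 over the 8 libraries was required for a test, and 43 genes reached it, with means between 10.8 and 1164 and a median of 288. Zfp948, the highest of the 59, averaged 1199 normalized counts in Hypo and 1129.7 in Ctrl. For comparison, the corepressor gene Trim28 averaged 12602 in Hypo and 12953 in Ctrl.

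Per kb of exon, Zfp948 had the highest level, at 452 ± 12.8 normalized counts per kb in Hypo and 426 ± 17.8 in Ctrl (SD, n = 4 each). Zfp958 followed with 311 ± 11.1 per kb in Hypo and 254 ± 9.54 in Ctrl, and Zfp961 with 229 ± 12.1 per kb in Hypo and 223 ± 13.3 in Ctrl. In Ctrl, Zfp948 stood clear of Zfp958 and Zfp958 of Zfp961 by more than their SDs. Zfp932 (211 ± 20.01 per kb) lay within the spread of Zfp961 and of Zfp954 (200.4 ± 11.8 per kb). Zfp961 and Zfp954 differed from each other by more than either SD. The lowest tested gene was Zfp988, at 4.36 ± 1.24 per kb in Hypo and 3.38 ± 0.80 in Ctrl.

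The comparison of Hypo with Ctrl asks how decitabine changed these genes in cells that had all received SKL2001. Zfp941, Zfp958 and Zfp959 were higher in Hypo, by 1.35-fold, 1.22-fold and 1.28-fold. None of the 43 tested genes was called lower, and 40 did not pass the test. Differences were small throughout, between -0.24 and 0.27 on the transformed scale. That scale is log2-like but compresses differences, most of all in low genes. The test was limma on the transformed values with Benjamini-Hochberg adjustment over all 15746 tested genes, and a gene was called at an adjusted p below 0.05. Over all tested genes 14.1% were called higher and 8.75% lower, 22.8% in either direction. The 3 of 43 (6.98%) called higher here is below that share. The 14.1% includes genes with a Ctrl mean below 10. With a Ctrl mean of at least 10 required, 10.5% of 15055 genes were called higher and 8.60% lower. In that fit 3 of 42 genes of this group (7.14%) were called higher and 0 lower. In bulk RNA, a change in the number of cells that express a gene and a change per cell cannot be told apart.

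**Figure D1:**
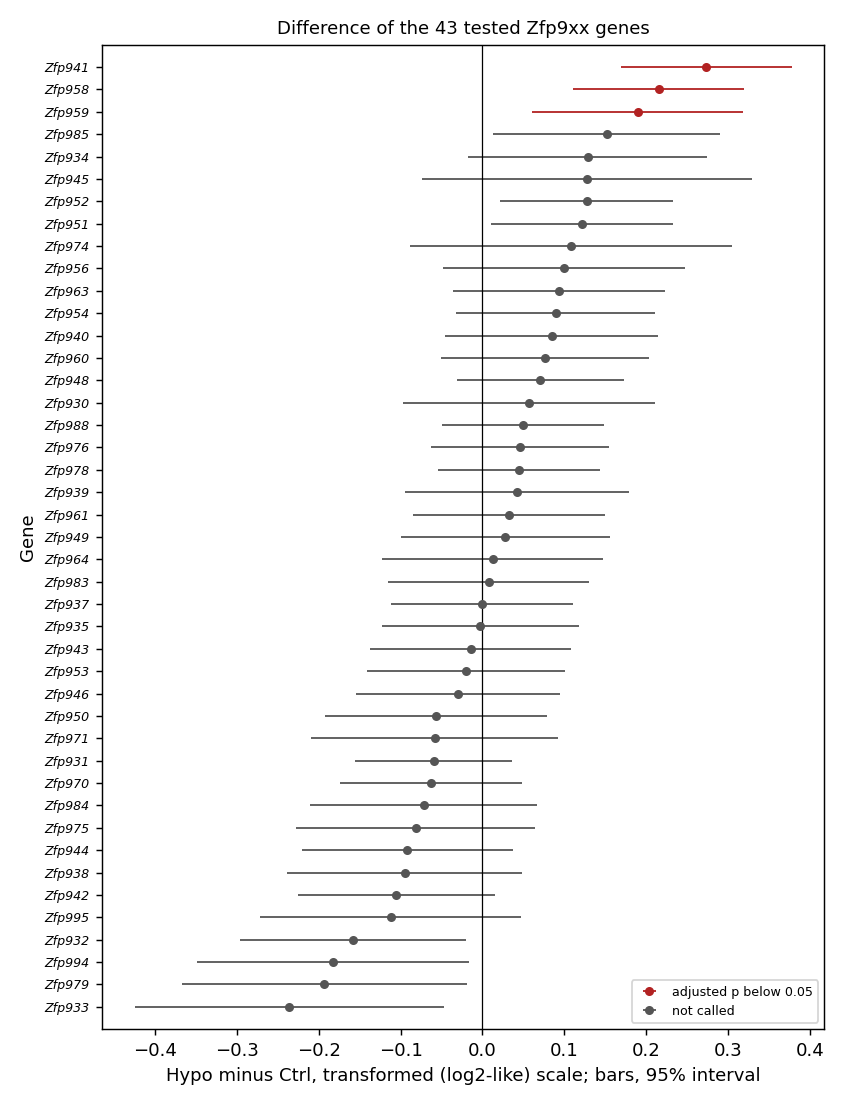
Difference of Hypo minus Ctrl (horizontal axis, transformed log2-like scale) for the 43 tested genes, ordered from the highest at the top to the lowest at the bottom, with 95% intervals from limma (n = 4 libraries each). Zfp941, Zfp958 and Zfp959, in red, passed an adjusted p of 0.05, and all differences lie between -0.24 and 0.27.

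Zfp941 (chromosome 7, 140807449 to 140822178, minus strand, 10 fingers) had 412, 451, 419.6 and 437 normalized counts in Hypo replicates 2 to 5, against 313, 322, 312 and 330.0 in Ctrl replicates 1 to 4. The groups did not overlap, and libraries within each group differed little. The mean was 429.9 ± 17.7 in Hypo and 319 ± 8.41 in Ctrl (SD, n = 4 each), a difference of 0.27 on the transformed scale (SE 0.05, 95% interval 0.17 to 0.38, limma adjusted p = 0.0014). Its exons share 3.29% of their 100-base windows with other genes, chiefly with Gm45785, which it overlaps on the same strand.

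Zfp958 (chromosome 8, 4613167 to 4630231, plus strand, 13 fingers) had 753, 754, 698 and 734 normalized counts in Hypo, against 609.7, 627, 574 and 592 in Ctrl. Every Hypo library lay above every Ctrl library. The mean was 735 ± 26.2 in Hypo and 601 ± 22.6 in Ctrl (SD, n = 4 each), a difference of 0.22 (SE 0.05, 95% interval 0.11 to 0.32, limma adjusted p = 0.0068). None of its windows is shared with another gene, and it overlaps no other gene.

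Zfp959 (chromosome 17, 55892093 to 55898928, plus strand, 9 fingers) had 254, 265, 206 and 256 normalized counts in Hypo, against 205, 176, 182 and 203 in Ctrl. The groups did not overlap, but Hypo replicate 4 came within 1 SD of the highest Ctrl library. The mean was 245 ± 26.9 in Hypo and 191 ± 14.9 in Ctrl (SD, n = 4 each), a difference of 0.19 (SE 0.06, 95% interval 0.06 to 0.32, limma adjusted p = 0.037). The call was lost without any 1 of Hypo replicates 2, 3 and 5 and Ctrl replicates 1, 2 and 4, with adjusted p of 0.055 to 0.11 in these fits. It was also lost with quantile normalization (difference 0.091, adjusted p = 0.29) and once GC and length trends were taken out (difference 0.15, adjusted p = 0.10). Its exons share 4.47% of their windows with other genes, chiefly Zfp119a.

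**Figure D2:**
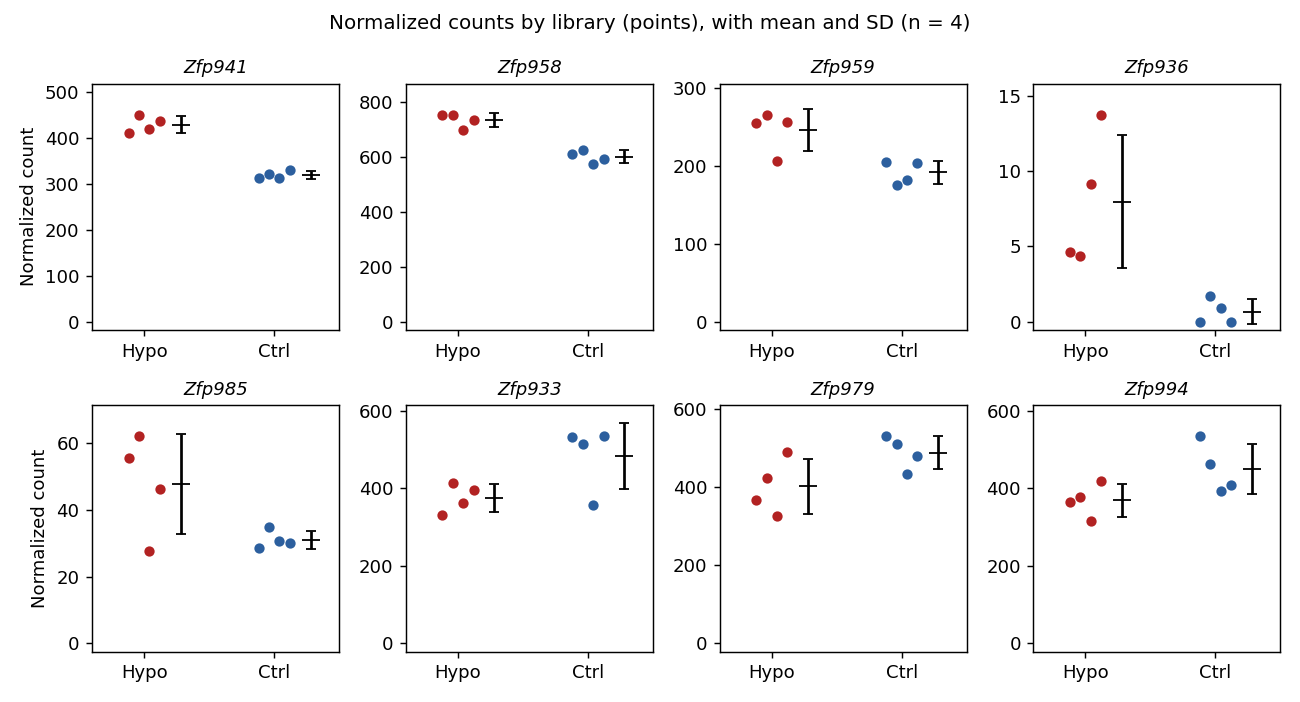
Normalized counts (vertical axes, each panel from 0) in the 4 Hypo libraries (left, red, replicates 2 to 5) and the 4 Ctrl libraries (right, blue, replicates 1 to 4), with mean and SD beside the points. Hypo lies wholly above Ctrl for Zfp941, Zfp958, Zfp959 and Zfp936, whereas the groups overlap for Zfp985, Zfp933, Zfp979 and Zfp994.

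With the called genes included, 6 of the 43 genes (14.0%) had an unadjusted p below 0.05 in the higher direction (Zfp941, Zfp958, Zfp959, Zfp952, Zfp951 and Zfp985) and 4 (9.30%) in the lower direction (Zfp933, Zfp932, Zfp979 and Zfp994). Over all tested genes 20.1% had such a p in the higher direction and 15.1% in the lower direction. DESeq2 on recovered reads called 3 of the 43 genes lower, against 13.7% of all tested genes. With edgeR, TMM scaling called 0 of the 43 lower, against 9.63% of all genes, and DESeq2 size factors called 1, against 11.7%.

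Zfp933, on chromosome 4, had 331, 412, 363 and 394 normalized counts in Hypo, against 531, 513, 357 and 533 in Ctrl. Ctrl replicate 3 lay among the Hypo libraries and the other 3 Ctrl libraries above all of them. The difference was -0.24 (SE 0.09, 95% interval -0.42 to -0.05, limma adjusted p = 0.071), and without Ctrl replicate 3 it was -0.33 with an adjusted p of 0.0012. Ctrl replicate 3 is the library with the highest summed stress response genes, and the part of that in this value was not tested.

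Zfp932, on chromosome 5, a repressor of endogenous retroviruses in mouse embryonic stem cells, had 600.3, 653, 550.0 and 569 normalized counts in Hypo, against 784, 681, 640.3 and 651 in Ctrl. The highest Hypo library lay above the lowest Ctrl libraries. The difference was -0.16 (SE 0.06, 95% interval -0.30 to -0.02, limma adjusted p = 0.094). Its exons share 18.5% of their windows with other genes, chiefly Gm15446.

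Zfp979, on chromosome 4, had 369, 425, 327 and 489.8 normalized counts in Hypo, against 531, 510.2, 434 and 480.4 in Ctrl. Hypo replicate 5 lay within the Ctrl range. The difference was -0.19 (SE 0.08, 95% interval -0.37 to -0.02, limma adjusted p = 0.11).

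Zfp994, on chromosome 17, had 366, 376, 317 and 420.0 normalized counts in Hypo, against 534, 463, 392 and 408 in Ctrl, with the groups overlapping. The difference was -0.18 (SE 0.08, 95% interval -0.35 to -0.02, limma adjusted p = 0.11). Without Ctrl replicate 3 all 4 genes were called lower, with adjusted p of 0.0012 for Zfp933, 0.044 for Zfp932, 0.042 for Zfp979 and 0.037 for Zfp994. In that fit 13.3% of all tested genes were called lower. Ctrl replicate 3 was the lowest or the highest Ctrl library in 28 of the 43 tested genes, against 23 for Ctrl replicate 1, 16 for Ctrl replicate 2 and 19 for Ctrl replicate 4.

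In the higher direction, Zfp952 had 597, 616, 587 and 582 normalized counts in Hypo, against 558, 499.8, 529 and 518 in Ctrl. The groups did not overlap, yet the gene was not called (difference 0.13, SE 0.05, limma adjusted p = 0.08). Zfp951 had 83.3, 69.0, 82.6 and 60.0 normalized counts in Hypo, against 57.4, 53.0, 62.5 and 53.9 in Ctrl. Only Hypo replicate 5 fell within the Ctrl range (difference 0.12, SE 0.05, limma adjusted p = 0.11).

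Zfp985 had the highest ratio of the tested genes, 1.54, with 55.5, 62.0, 27.5 and 46.2 normalized counts in Hypo, against 28.7, 34.8, 30.8 and 29.9 in Ctrl. Hypo replicate 4 lay below every Ctrl library and the other 3 Hypo libraries above all of them (difference 0.15, SE 0.06, limma adjusted p = 0.11). Without Hypo replicate 4 it was called higher. Zfp934 had 472, 552, 468 and 476 normalized counts in Hypo, against 466, 448, 359 and 456 in Ctrl. The groups were separated by a gap smaller than either SD (difference 0.13, SE 0.07, limma adjusted p = 0.19).

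Of the remaining genes with the smallest p, Zfp942 had 553, 552, 526 and 484 normalized counts in Hypo, against 611, 577, 619 and 537 in Ctrl (difference -0.11, limma adjusted p = 0.20). Zfp944 had 459, 501, 404 and 462 in Hypo, against 525, 533, 470.0 and 475 in Ctrl (difference -0.09, adjusted p = 0.30). Both are on chromosome 17, and in both the groups overlapped. Zfp995 had 267, 263, 177 and 267 in Hypo, against 291, 258, 283 and 275 in Ctrl (difference -0.11, limma adjusted p = 0.31). Zfp938 had 281, 274, 332 and 234 in Hypo, against 323, 337, 299.8 and 289 in Ctrl (difference -0.10, adjusted p = 0.34). In Zfp995 a single Hypo library, replicate 4, was low, and in Zfp938 the Hypo libraries spread wider than the difference.

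Zfp954 had 534, 518, 569 and 478 normalized counts in Hypo, against 494, 483, 439 and 503 in Ctrl (difference 0.09, limma adjusted p = 0.28). Zfp963 had 108, 122, 104 and 83.6 in Hypo, against 88.1, 74.7, 85.1 and 104 in Ctrl (difference 0.09, adjusted p = 0.29). The groups overlapped in both genes. Zfp956 had 264, 265, 300.2 and 218 in Hypo, against 220.3, 229, 271 and 205 in Ctrl (difference 0.10, limma adjusted p = 0.33). Zfp940 had 182, 187, 225 and 240.0 in Hypo, against 173, 181, 197 and 189.8 in Ctrl (difference 0.08, adjusted p = 0.35). These differences were within the spread between libraries.

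The most abundant genes were close to level. Zfp948 had 1166, 1194, 1246 and 1188 normalized counts in Hypo, against 1177, 1080.4, 1162 and 1099 in Ctrl (difference 0.07, 95% interval -0.03 to 0.17, limma adjusted p = 0.31). Zfp961 had 923, 1027, 984 and 1039 in Hypo, against 996, 1006, 881 and 982 in Ctrl (difference 0.03, 95% interval -0.09 to 0.15, adjusted p = 0.72). Zfp930 had 916, 850.4, 965 and 755 in Hypo, against 849, 791, 925 and 748 in Ctrl (difference 0.06, 95% interval -0.10 to 0.21, adjusted p = 0.61).

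Across the 43 tested genes, 24 had a positive and 19 a negative difference, with a median of 0.028, against 0.0035 over all tested genes. The groups did not overlap in 6 of the 43, against 25.7% of all tested genes. On the transformed scale none of the 43 had an absolute difference above 0.3, which 9.41% of all tested genes had. Since these genes are nearly all expressed in Ctrl, the share among tested genes with a Ctrl mean of at least 10 is also given, and it was 7.26%. The scale of log2 of the normalized count plus 1 does not compress low genes in this way. On it 6 of the 43 exceeded 0.3 (Zfp933, Zfp941, Zfp951, Zfp959, Zfp985 and Zfp988), against 26.5% of all tested genes. Zfp988 averaged 9.47 normalized counts in Ctrl and 12.2 in Hypo, so it reached the minimum of 10 through Hypo. The 26.5% likewise includes genes with a Ctrl mean below 10, and the share without them was not computed on this scale. In 37 of the 43 genes the ratio of Hypo to Ctrl was between 0.8 and 1.25. For the 32 genes with a mean of at least 100, every 95% interval on the transformed scale lay within -0.5 to 0.5. The outermost bounds were -0.42 and 0.38, with a median distance of 0.13 between estimate and bound. The scale compresses these genes too, as Zfp941 with a ratio of 1.35 differed by 0.27. The bounds thus allow larger fold changes than the same numbers in log2 would. Differences beyond these bounds were thus outside the intervals.

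The other 16 genes were at or near the detection limit in both groups. Besides Zfp936, their highest value in any library was 9.60 normalized counts (Zfp947 in Hypo replicate 3), and their Ctrl means were at most 3.09. Zfp997 had no reads in any Ctrl library and up to 2.31 normalized counts in Hypo. Among genes that were in both tables with a Ctrl mean below 10, a fit without a filter on low values called 20.8% higher in Hypo. Of the 11 such genes of this group it called 1, Zfp936.

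Zfp936 (chromosome 7, 43114229 to 43192109, plus strand, 11 fingers) had 4.63, 4.37, 9.18 and 13.8 normalized counts in Hypo, against 0, 1.74, 0.91 and 0 in Ctrl. Every Hypo library lay above every Ctrl library, though all were low. The counts rest on 33 reads in Hypo and 3 reads in Ctrl, which came from 2 of the Ctrl libraries. The ratio of the read rates was 11.8 with an exact 95% counting interval of 3.69 to 59.9, which covers counting error only. In the fit without a filter the limma adjusted p was 0.0044 (transformed difference 0.27, SE 0.06). Its exons share 4.01% of their windows with other genes, and it overlaps no annotated gene.

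Low levels went with shared sequence in these genes, which matters because only uniquely aligned reads were counted. A window of 100 bases was called shared when it occurred identically in a transcript of another gene. The share of such windows had a median of 31.0% (range 0 to 93.4%) in the 16 genes that were not tested and of 2.38% (up to 68.3%) in the 43 that were. More than 25% of windows were shared in 10 of the 16 and in 6 of the 43 genes. Over all 59 genes the Spearman correlation of the shared percentage with the Ctrl level per kb was -0.55, a description over genes that share libraries, clusters and ancestry. The part of lost reads in the low levels was not tested.

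The extremes were Zfp965 and Zfp968, neighbours on chromosome 2 with 93.4% and 88.6% shared windows, which read back to at most 0.98 and 1.75 normalized counts. Their values are uncertain for that reason. In contrast, 5 of the 16 genes had at most 5% shared windows: Zfp936, Zfp947, Zfp977, Zfp982 and Zfp990. Zfp977 had 1.16, 3.49, 4.59 and 5.90 normalized counts in Hypo, against 0, 3.48, 0.91 and 7.69 in Ctrl. None of its 100-base windows has an identical copy in the transcripts of another gene.

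**Figure D3:**
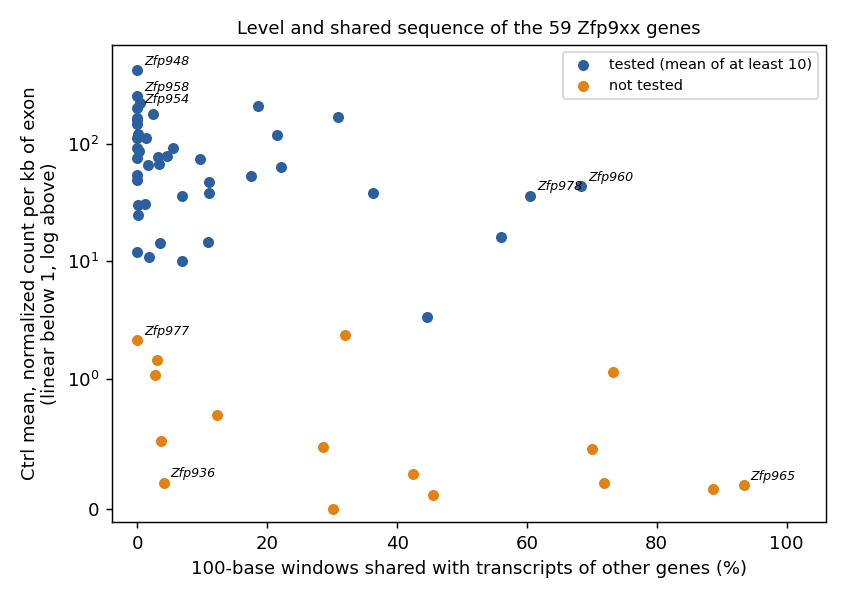
Ctrl mean level of each of the 59 genes (vertical axis, normalized counts per kb of exon, linear below 1 and log above) against the percentage of its 100-base windows that occur in transcripts of other genes (horizontal axis). Tested genes are blue and untested genes orange, and 10 of the 16 untested genes lie above 25% shared windows, against 6 of the 43 tested genes.

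Zfp960 and Zfp978 were tested in spite of 68.3% and 60.5% shared windows, chiefly with Zfp97 and Zfp600, so their counts come from the remaining sequence and are uncertain. Neither was called. Zfp963 (36.2%), Zfp984 (30.9%) and Zfp988 (44.6%) are uncertain in the same way, and none of them was called. The gene listed as Zfp935 in the deposited tables has an identifier (ENSMUSG00000113450) that the GENCODE annotation names Gm49359, and it overlaps the gene that the annotation names Zfp935. It shares 56.1% of its windows, chiefly with that gene, and its difference was -0.0027.

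By position, the largest neighbourhood was on chromosome 4 between 145.5 and 147.8 Mb, with 14 genes, of which 6 were tested and 8 were not. Its tested genes ran between -0.24 (Zfp933) and 0.15 (Zfp985), 3 positive and 3 negative, so that the extremes of the negative side and the highest ratio came from the same neighbourhood. The neighbourhood on chromosome 17 between 21.6 and 22.9 Mb held 10 genes, 9 of them tested, with 3 positive and 6 negative differences between -0.18 (Zfp994) and 0.13 (Zfp945). On chromosome 2 between 176.7 and 178.1 Mb the 3 tested genes, Zfp931, Zfp970 and Zfp971, were all slightly negative, at about -0.06. On chromosome 8 between 69.2 and 69.7 Mb the 3 genes, Zfp930, Zfp963 and Zfp964, were all slightly positive, between 0.01 and 0.09. The 3 called genes were in 3 of the 19 neighbourhoods that hold 1 gene of this group. In all of these 19 except that of Zfp997 the gene was tested. Only genes of this group were counted as neighbours, so other zinc finger genes may lie beside them.

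Other features of the genes varied little with the difference. Over the 43 tested genes, the Spearman correlation of the difference with the number of fingers was -0.087, and with the Ctrl level per kb it was -0.18. Over the 39 with a promoter near the annotated start, that of the difference with the number of promoter CG was 0.19. These are descriptions across genes, which are not independent replicates. Among the 47 promoters, the number of CG and the Ctrl level per kb had a Spearman correlation of 0.46, and of 0.27 in the tested genes alone.

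The partners through which KRAB zinc finger proteins act were compared with the genes themselves. Trim28, the corepressor that binds the KRAB domain, had 12359.7, 12509.5, 11564 and 13976 normalized counts in Hypo, against 14020.2, 12279, 11702 and 13811 in Ctrl (difference -0.04, 95% interval -0.19 to 0.12, limma adjusted p = 0.75). Setdb1, the H3K9 methyltransferase it recruits, had 2851, 3095, 3032 and 3074 in Hypo, against 3032, 2929, 3047 and 3172 in Ctrl (difference -0.01, 95% interval -0.11 to 0.08, adjusted p = 0.86). The groups overlapped fully for both.

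Of the 28 genes in the corepressor list, all of which were tested, 6 were higher in Hypo, 1 was lower and 21 did not pass. The share of 21.4% higher stands against 14.1% of all tested genes, and 3.57% lower against 8.75%. With a Ctrl mean of at least 10 required, all genes gave 10.5% higher and 8.60% lower. In that fit the list again gave 6 higher and 1 lower. The difference between the list and all genes was not tested. Resf1, which encodes a retroelement silencing factor that binds SETDB1, had 3809, 3559.8, 3237 and 3543 normalized counts in Hypo, against 1789, 1604, 1912 and 1726 in Ctrl. The Hypo libraries were about 2.01 times as high as the Ctrl libraries on average (difference 0.91, SE 0.06, limma adjusted p = 5.6e-07).

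Atf7ip, whose product stabilizes SETDB1 in the nucleus, had 5504, 5399.5, 5466 and 5137 normalized counts in Hypo, against 3196, 3493, 3738 and 3508 in Ctrl (difference 0.59, SE 0.05, limma adjusted p = 6.4e-06). Trim24, a relative of Trim28, had 2197, 2207, 2285 and 2023 in Hypo, against 1274, 1339, 1523 and 1287 in Ctrl (difference 0.60, SE 0.06, adjusted p = 1.8e-05). In both genes the lowest Hypo library lay far above the highest Ctrl library. Morc3, a silencing ATPase, had 2323, 2349.6, 2392 and 2234 in Hypo, against 1733, 1890.4, 1755 and 1787 in Ctrl (difference 0.33, SE 0.04, limma adjusted p = 0.00022). Trim33, another relative of Trim28, and Dnmt1, the maintenance DNA methyltransferase, were higher by 0.24 and 0.19, and Cbx1, which encodes the heterochromatin protein HP1β, was lower by -0.19 on the transformed scale.

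**Figure D4:**
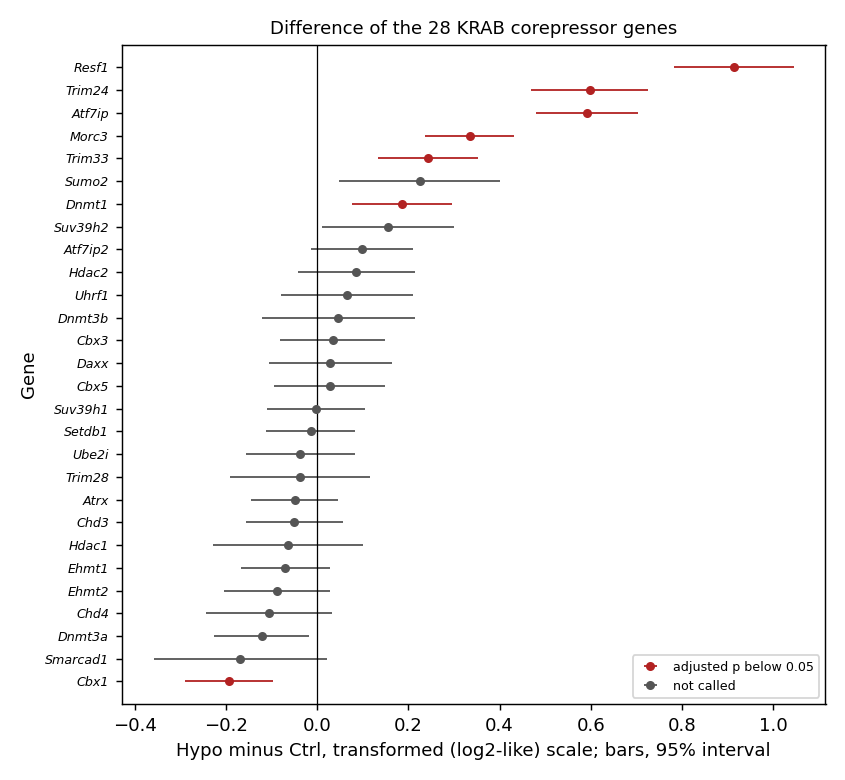
Difference of Hypo minus Ctrl (horizontal axis, transformed log2-like scale) with 95% intervals for the 28 corepressor genes, the highest at the top, n = 4 libraries each. Resf1, Trim24, Atf7ip, Morc3, Trim33 and Dnmt1 were higher and Cbx1 lower (red), whereas Trim28 and Setdb1 lie near 0.

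The other genes with a Zfp symbol gave a wider range. Of 323 such genes 294 were tested, and 33 (11.2%) were called higher and 23 (7.82%) lower, with a median difference of 0.0062. Of these 294 genes, 18 had an absolute difference above 0.3, a size that none of the 43 Zfp9xx genes reached on the transformed scale. On the scale of log2 of the normalized count plus 1, 53 of the 294 and 6 of the 43 exceeded it. The difference between the 2 groups of genes was not tested.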

How the data were processed

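The titles of the samples gave the groups and the replicate numbers. The study made poly(A) RNA into stranded paired-end libraries, aligned the reads with STAR to GRCm38 and counted uniquely aligned reads per gene. Use of the strand in counting is not given in the sources, so reads of antisense neighbours may be mixed. Separate cultures behind the libraries are not stated either, and p-values then reflect only how these samples vary, which may be technical variation.

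The authors deposited normalized counts (a signal, reads divided by a size factor) for 23606 genes and variance-stabilized values on a log2-like scale for 27336 genes. The deposited comparison columns (fold change, statistic and p-values) were not used. In every library 100% of the normalized counts were whole multiples of 1 read within 0.01, so reads were recovered. Such reads are not independent molecules, so their number bounds counting error only.

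The 15746 genes that both tables list and whose normalized counts average at least 10 were fitted with limma 3.58.1 (trend, two-sided, Benjamini-Hochberg) in R 4.3.3 on the deposited transformed values, and the script was tested on simulated data. On the transformed scale, normalized counts of 0, 10 and 100 correspond to 7.08, 7.47 and 8.29. Intervals are at 95%. Alternatives used edgeR 4.0.16 and DESeq2 1.42.0 on recovered reads, other scalings and filters, and left out single libraries, 22 planned and 2 added after seeing the data. Values per library were given for the 20 genes with the smallest p, for any called lower and for the 3 with the highest mean, and for Trim28, Setdb1 and the 4 corepressor genes with the smallest p. Zfp936, Zfp977 and the pairs with much shared sequence were singled out after their values were seen. Fingers were counted as C-x(2 to 4)-C-x12-H-x(3 to 5)-H in conceptual translations of the GENCODE annotation. For each gene the translation with the most fingers was used, and the KRAB letters were sought in all its translations. CG were counted on both strands at once, since the letters are their own reverse complement. The genes and lists were chosen with earlier results of these data known.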

Additional observations from a re-analysis of the deposited data

Results flagged for a closer look

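Within groups of 4 libraries, 4 values of the named genes stood apart by Dixon's criterion at 95%, which chance alone meets in about 5 percent of groups. Zfp934 had 552 normalized counts in Hypo replicate 3, above the 468 to 476 of the other Hypo libraries, and 359 in Ctrl replicate 3, below the 448 to 466 of the other Ctrl libraries. Its adjusted p ranged between 0.076 and 0.43 over the alternatives, so it was called in none of them. Zfp995 had 177 normalized counts in Hypo replicate 4, below the 263 to 267 of the other Hypo libraries. Zfp933 had 357 normalized counts in Ctrl replicate 3, below the 513 to 533 of the other Ctrl libraries. It was not called by the unweighted limma fit of the deposited values and was called lower without that library (adjusted p = 0.0012), and also, with that library included, with quantile normalization (0.032), array weights (0.0024), DESeq2 (0.017) and edgeR with DESeq2 size factors (0.042).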

How the results depend on the processing

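Zfp941 and Zfp958 were called higher in 23 of 24 alternatives and Zfp959 in 15. The count of called genes of this group (3 higher, 0 lower) became 7 and 3 with array weights, 0 and 0 with the replicate block, and 2 to 4 higher when single libraries were left out. Called lower were 5 with quantile normalization, 4 without Ctrl replicate 3, 1 without Hypo replicate 5, 0 without any other single library, 1 without both Ctrl replicate 3 and Hypo replicate 4, 3 with DESeq2, 1 with edgeR and DESeq2 size factors and 1 once GC and length trends were taken out. Over all genes, array weights called 20.8% higher and 17.0% lower, and quantile normalization called 12.5% lower. The median difference, 0.028, was -0.079 with quantile normalization and -0.0055 once GC and length trends were taken out. Corepressor genes called lower, 1, became 3 with array weights, 0 with the block, 2 without both libraries, 2 with edgeR and DESeq2 size factors, 2 with DESeq2 and 1 to 3 without single libraries. Other Zfp genes, 33 higher and 23 lower, became 60 and 46 with array weights and 15 and 4 with the block. Of them, 49 were higher and 32 lower without both libraries, and 38 were lower with quantile normalization and 41 with DESeq2. Over all genes, 2219 higher became 1350 at a minimum of 50 and 1283 with the block, and 1378 lower became 2673 with array weights, 322 with the block and 2153 with DESeq2. Without single libraries, the other Zfp genes were 21 to 44 higher and 12 to 31 lower, and all genes 1738 to 2795 higher and 855 (without Hypo replicate 3) to 2100 (without Ctrl replicate 3) lower. The cause of these changes was not tested.

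The sign turned with quantile normalization for Zfp951 (-0.0096), Zfp963 (-0.039), Zfp940 (-0.020), Trim28 (0.023) and Setdb1 (0.022). It also turned for Zfp961 without Ctrl replicate 3 (-0.0026) and once GC and length trends were taken out (-0.010), for Trim28 without Hypo replicate 4 (0.0014) and without Ctrl replicate 1 (0.00072), and for Setdb1 without Hypo replicate 2 (0.010) and without Ctrl replicate 4 (0.0042). Without single libraries the differences ran between -0.0026 and 0.060 for Zfp961, between -0.088 and 0.0014 for Trim28 and between -0.031 and 0.010 for Setdb1. None of these 6 genes was called in any alternative, except Zfp951 with array weights (0.13 higher, adjusted p = 0.041).

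Replicate numbers 2, 3 and 4 occur in both groups, but nothing in the labels says that a number marks a shared culture or day. The correlations of same-numbered deviations were -0.11, -0.21 and -0.17, and no library correlated best with its own number. Pairs with unlike numbers ran between -0.59 and 0.52. The numbers thus gave no sign of pairing, but so few values cannot exclude it. Ctrl replicate 1 and Hypo replicate 5 have no partner and add nothing to the block fit.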
